A study of Homo sapiens with 12 samples.

Results

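The keratins and the genes of the cornified envelope were taken from a table of raw read counts per gene as every protein-coding gene whose symbol is KRT followed by a number and at most 1 letter, together with SCEL, IVL, TGM1, EVPL, PPL, SPRR1A, SPRR1B, SPRR2A, SPRR3, CNFN, KLK5 and KLK7. This rule found 67 of the 58037 genes counted, namely 29 type I keratins, 26 type II keratins and 12 envelope genes. RNA-seq was performed on 2 human prostate cancer cell lines that carry a doxycycline (DOX)-inducible shRNA against MUC1 (tet-MUC1shRNA). LNCaP-AI cells were derived from C4-2B cells, a subline of LNCaP, by long-term culture in hormone-depleted medium. DU-145 cells are a castration-resistant line of another origin. The labels give phenol red-free medium with charcoal-stripped serum for both lines, whereas the methods give it for LNCaP-AI cells and ordinary serum for DU-145 cells, so a difference of medium cannot be told apart from the line. Cells were kept for 7 days with vehicle or with DOX (500 ng/ml), giving DU-145 vehicle, DU-145 DOX, LNCaP-AI vehicle and LNCaP-AI DOX groups of 3 samples each. Libraries of cells that carry a control shRNA and received DOX were not analysed here, so lowering of MUC1 and exposure to DOX cannot be told apart.

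Keratins are the intermediate filament proteins of epithelial cells. Each filament is built from pairs of a type I and a type II chain, so a cell needs members of both families. Luminal cells of the prostate make the simple-epithelial pair KRT8 and KRT18, whereas basal cells make KRT5, KRT14, KRT15 and KRT17. KRT7 and KRT19 are further keratins of simple epithelia. KRT6 and KRT16 are keratins of activated or wounded stratified epithelium, and KRT81 and KRT86 are hair keratins. In terminally differentiating squamous cells, envoplakin (EVPL) and periplakin (PPL) form a scaffold beneath the membrane, to which transglutaminase 1 (TGM1) crosslinks involucrin (IVL), sciellin (SCEL), cornifelin (CNFN) and the small proline-rich proteins (SPRR). KLK5 and KLK7 are proteases that act when such cells are shed.

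Total counts ranged from 10423437 to 13544153 in DU-145 samples and from 16569613 to 26961777 in LNCaP-AI samples. Of the 67 genes, 45 had at least 1 count in any sample and 22 were at 0 in all 12. A gene was tested when 3 or more of the samples fitted held 10 or more of its counts, a filter that 15 of the 67 passed in DU-145 cells and 25 in LNCaP-AI cells. Levels are given as CPM, counts scaled to a fixed library size with TMM factors over the 12 samples, and changes as log2 fold changes with the standard error (SE) and the Benjamini-Hochberg adjusted p of edgeR's quasi-likelihood test over all genes tested. The groups are bulk cultures, in which fewer cells of a kind and less RNA per cell cannot be told apart.

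The LNCaP-AI samples divided in a way that did not follow the treatment in their labels. The first principal component of 16005 genes that are neither keratins nor envelope genes held 82.22% of the variance and placed vehicle 1, DOX 2 and DOX 3 at -65.5, -84.2 and -84.3, against 83.9, 85.5 and 64.7 for vehicle 2, vehicle 3 and DOX 1. Below, the first 3 are called the vehicle 1 side and the other 3 the vehicle 2/3 side. In DU-145 cells the first component (71.05% of the variance) separated DOX from vehicle. Whether LNCaP-AI samples were exchanged or hold a mixture of cells was not tested, and the samples were kept as labelled. Results in LNCaP-AI cells are therefore given sample by sample and within each side. KLK3, which codes for prostate-specific antigen, was at 132.0 to 447.8 CPM in every LNCaP-AI sample and at 0 in every DU-145 sample. Summed levels of 6 blood and immune markers did not exceed 0.342 CPM.

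**Figure D1:**
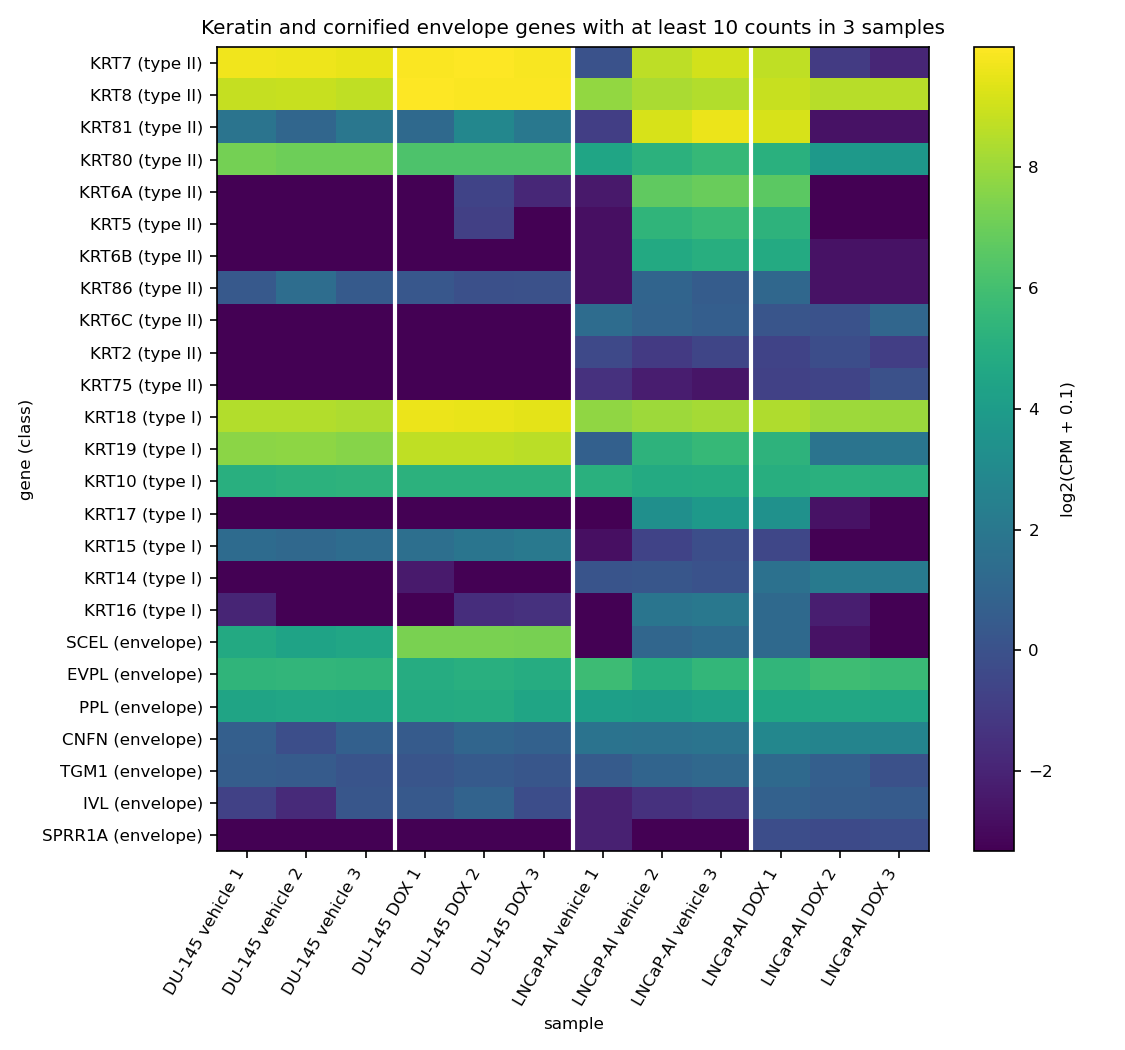
Heat map of log2(CPM + 0.1) for the 25 keratin and envelope genes that held 10 or more counts in 3 or more samples (rows, by class) in each sample (columns, white lines between groups). KRT8, KRT18 and SCEL are brighter in all DU-145 DOX samples, whereas KRT81, KRT7, KRT6A and KRT5 are bright in LNCaP-AI vehicle 2, vehicle 3 and DOX 1 and dark in the other 3 LNCaP-AI samples.

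MUC1, the gene the shRNA targets, fell in both lines. DU-145 vehicle samples held 74, 60 and 59 MUC1 counts and each DOX sample held 3, at the floor of detection, a fall of at least 21.8-fold (adjusted p = 1.37e-09). LNCaP-AI vehicle samples held 36, 25 and 52 counts and DOX samples 8, 6 and 3, a log2 change of -2.50 (SE 0.330, adjusted p = 0.0139). This call was lost without DOX 2 (adjusted p = 0.0854) or DOX 3 (0.0829), although each DOX sample lay below each vehicle sample. In both lines MUC1 passed the filter only through the vehicle samples, where it is high. It was under the filter when any vehicle sample was left out. MUC1 fell within both sides of the LNCaP-AI samples, with log2 ratios of -2.31 on the vehicle 1 side and -1.96 on the vehicle 2/3 side.

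To show the DNA ahead of the genes that rose with DOX in either line, the 250 bases before the RefSeq start site (GRCh38.p14) are printed for the 5 of them that have an entry in the promoter set used: SCEL, IVL, SPRR1A, CNFN and KRT8. Each is written 5′ to 3′ along the gene's own strand. Capitals mark TGANTCA, the letters bound by the AP-1 factors (a palindrome, so that both strands are covered), and the GC box GGGCGG or its reverse complement CCGCCC, the letters bound by SP1. The windows lie at chr13:77535456-77535705 (SCEL, plus strand), chr1:152908296-152908545 (IVL, plus), chr1:152983831-152984080 (SPRR1A, plus), chr19:42390298-42390547 (CNFN, minus) and chr12:52926470-52926719 (KRT8, minus).
SCEL: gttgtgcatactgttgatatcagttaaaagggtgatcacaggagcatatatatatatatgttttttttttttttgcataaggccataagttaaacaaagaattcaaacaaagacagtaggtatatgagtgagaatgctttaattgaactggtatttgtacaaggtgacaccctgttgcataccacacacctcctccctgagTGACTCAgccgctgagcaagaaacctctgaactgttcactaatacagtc
IVL: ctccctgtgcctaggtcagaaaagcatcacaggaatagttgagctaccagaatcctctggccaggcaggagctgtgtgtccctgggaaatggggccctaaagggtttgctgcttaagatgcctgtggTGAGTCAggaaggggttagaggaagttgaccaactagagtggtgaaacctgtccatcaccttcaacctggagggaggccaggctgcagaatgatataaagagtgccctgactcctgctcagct
SPRR1A: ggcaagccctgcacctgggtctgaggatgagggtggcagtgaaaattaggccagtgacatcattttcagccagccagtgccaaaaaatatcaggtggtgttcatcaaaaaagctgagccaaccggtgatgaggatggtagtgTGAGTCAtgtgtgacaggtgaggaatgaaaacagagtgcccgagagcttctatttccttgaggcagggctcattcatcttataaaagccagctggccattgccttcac
CNFN: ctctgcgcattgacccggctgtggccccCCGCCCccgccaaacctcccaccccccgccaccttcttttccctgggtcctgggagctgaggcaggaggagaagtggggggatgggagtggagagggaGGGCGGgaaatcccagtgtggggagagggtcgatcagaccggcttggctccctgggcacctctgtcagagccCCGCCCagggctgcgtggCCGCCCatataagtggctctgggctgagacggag
KRT8: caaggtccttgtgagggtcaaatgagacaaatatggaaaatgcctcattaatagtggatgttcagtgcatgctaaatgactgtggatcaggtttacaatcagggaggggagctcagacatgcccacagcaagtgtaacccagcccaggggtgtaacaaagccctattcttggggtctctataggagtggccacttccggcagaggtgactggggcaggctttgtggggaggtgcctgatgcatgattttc
The AP-1 letters begin at position -49 from the start site in SCEL, -123 in IVL and -108 in SPRR1A, with 1 match each. No AP-1 match overlaps a GC box in these windows. CNFN holds 4 GC boxes and no AP-1 letters, and the KRT8 window holds neither. That window lies inside the KRT8 gene as annotated (chr12:52897187-52949954). A single entry per gene was searched, so other start sites of KRT8 were not. Among all 35116 promoter windows of this length, 6.57% hold the AP-1 letters and 42.6% the GC box, and of the 9 tested keratin and envelope genes with an entry, 3 and 2 do. A match is a description of the sequence and not a measured site.

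In DU-145 cells, DOX was associated with higher levels of the simple-epithelial keratins and of sciellin, and with lower KRT80 and envoplakin. Of the 15 genes tested, 7 rose and 2 fell, against 26.3% and 25.3% of all 13644 genes tested (51.5% in either direction). The median log2 change of the 15 genes was 0.292, and that of all genes 0.000552. All 4 tested keratins of the simple-epithelial list (KRT7, KRT8, KRT18 and KRT19) rose, with a median of 1.07, whereas of the 6 envelope genes tested, 2 rose and 1 fell.

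SCEL, which codes for a precursor of the cornified envelope, moved furthest. Its level was 26.5, 20.9 and 23.4 CPM in vehicle samples and 159.7, 158.5 and 152.3 CPM in DOX samples. The lowest DOX sample lay far above the highest vehicle sample, and the log2 change was 2.73 (SE 0.0832, adjusted p = 3.26e-14). SCEL is the gene in the set above whose AP-1 letters lie nearest the start. Of the other genes in that set, KRT8 rose in DU-145 cells and its window holds no AP-1 letters. IVL and SPRR1A hold them, but IVL was not called in DU-145 cells and SPRR1A was at 0 counts there. The part of these letters in the changes was not tested.

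KRT8 and KRT18, the partner chains of the simple-epithelial filament, rose to a similar degree. KRT8, the type II chain, was at 456.9, 460.2 and 411.8 CPM with vehicle and 987.3, 971.0 and 956.0 CPM with DOX. KRT18, the type I chain, was at 345.2, 351.0 and 327.7 CPM with vehicle and 761.7, 754.2 and 699.2 CPM with DOX. The groups did not overlap for either gene, and the log2 changes were 1.14 for KRT8 (SE 0.0723, adjusted p = 2.78e-10) and 1.12 for KRT18 (SE 0.0703, adjusted p = 2.4e-10). KRT19, a type I keratin without a tail domain, went from 204.2, 210.7 and 188.5 CPM to 412.8, 416.2 and 389.6 CPM, a log2 change of 1.02 (SE 0.0688, adjusted p = 5.97e-10).

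KRT7, the type II keratin with the highest level per length in DU-145 vehicle samples, changed less. It was at 835.4, 796.6 and 756.4 CPM with vehicle and 951.6, 1010 and 929.7 CPM with DOX, so the groups were close but did not overlap. Its log2 change was 0.28 (SE 0.0724, adjusted p = 0.00303). Because KRT8, KRT18 and KRT19 rose more than KRT7, the make-up of the keratin counts shifted: KRT7 made up 39.9% to 41.1% of them with vehicle and 29.4% to 30.8% with DOX, and KRT8 22.1% to 23.0% and 29.6% to 30.8%. All keratins together made up 0.179% to 0.194% of the counts of a vehicle sample and 0.292% to 0.308% of those of a DOX sample.

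KRT80, a type II keratin of differentiating epithelia, fell from 148.1, 132.2 and 131.2 CPM to 76.2, 78.0 and 78.0 CPM. Its log2 change was -0.82 (SE 0.0698, adjusted p = 1.41e-08), opposite in sign to the other type II keratins called. EVPL fell from 42.3, 43.8 and 42.0 CPM to 30.3, 33.0 and 30.6 CPM, a log2 change of -0.44 (SE 0.0794, adjusted p = 0.00013). In both genes every DOX sample lay below every vehicle sample.

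The remaining calls were near the threshold. PPL, the partner of envoplakin, was at 22.0, 23.2 and 22.6 CPM with vehicle and 28.3, 29.4 and 22.9 CPM with DOX, so that DOX 3 lay within the vehicle range (log2 change 0.26, SE 0.101, adjusted p = 0.0372). KRT15, a basal keratin, was low, at 2.38, 2.12 and 2.52 CPM with vehicle and 2.83, 3.54 and 4.08 CPM with DOX (log2 change 0.58, SE 0.228, adjusted p = 0.0406). Neither call held when DESeq2 or upper-quartile normalization was used, with adjusted p of 0.0935 and 0.0602 for PPL and 0.127 and 0.0521 for KRT15, and they were lost in 4 and 5 of the 6 fits that left out 1 sample.

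**Figure D2:**
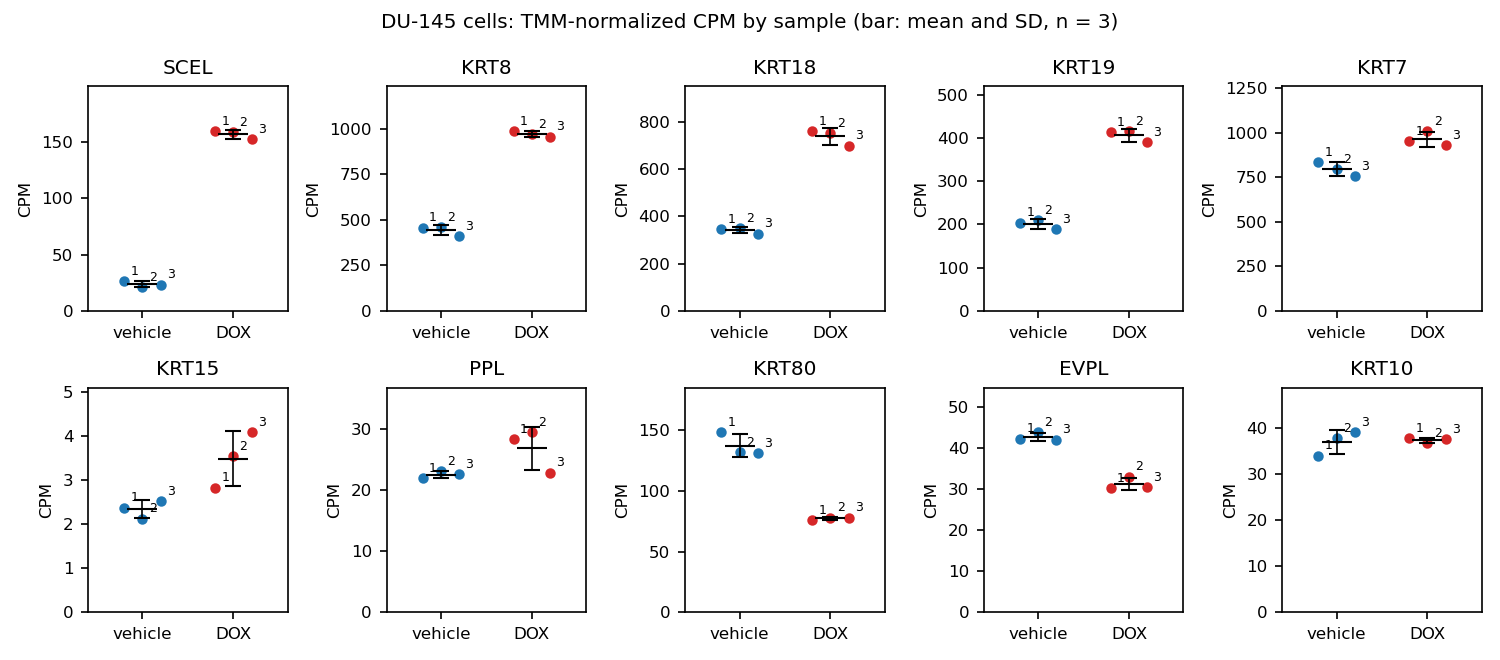
CPM of 10 keratin and envelope genes in DU-145 cells (y axis, from 0) by treatment (x axis), with 1 numbered point per sample and bars for mean and SD (n = 3). The DOX points of SCEL, KRT8, KRT18 and KRT19 lie above, and those of KRT80 and EVPL below, all vehicle points, whereas KRT10 overlaps.

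The other 6 genes tested in DU-145 cells did not pass the threshold. KRT10, a suprabasal keratin, was at 34.1 to 39.1 CPM with vehicle and 36.8 to 37.8 CPM with DOX (log2 change 0.02, adjusted p = 0.830). TGM1 had a log2 change of -0.13 (adjusted p = 0.774) and CNFN one of 0.29 (adjusted p = 0.468). IVL, at 6, 2 and 13 counts with vehicle and 13, 23 and 9 with DOX, had a log2 change of 1.07 (adjusted p = 0.0612), and the hair keratins KRT86 and KRT81 had log2 changes of -0.78 (adjusted p = 0.0798) and 0.54 (adjusted p = 0.154). KRT4, a keratin of non-cornified stratified epithelium, was under the filter, with 8, 13 and 10 counts in vehicle samples and 1, 2 and 0 in DOX samples. DU-145 DOX 2 alone held 6 counts of KRT5, and it held 7 of KRT6A and 89 of KRT81, where the other DU-145 samples held at most 2 and 45. Of the 52 genes under the filter, 40 were at 0 in every DU-145 sample and none exceeded 13 counts.

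In LNCaP-AI cells the genes that rose with DOX were KRT14, a basal keratin, and the envelope genes IVL, CNFN and SPRR1A. They were higher in all DOX samples than in all vehicle samples. Of the 25 genes tested, 4 rose and 0 fell at the threshold, against 7.22% and 5.52% of all 16030 genes tested (12.7% in either direction), and 7 of the 25 had an unadjusted p under 0.05. DESeq2 called 5 of the 25 in either direction. The median log2 change was -0.543, and that of all genes -0.0536. Of the 7 envelope genes tested, 3 rose (median 0.383), SPRR1A among them having passed the filter only through the DOX samples. IVL also passed it through the DOX samples, since of the vehicle samples only vehicle 3 reached 10 counts. Of the 4 basal keratins 1 rose (median -1.14).

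KRT14, the type I keratin of basal cells, was at 0.981, 1.07 and 0.937 CPM (22, 20 and 27 counts) with vehicle and 3.05, 4.34 and 4.17 CPM (75, 76 and 74 counts) with DOX. The log2 change was 1.92 (SE 0.215, adjusted p = 0.0123), and it was 2.01 on the vehicle 1 side and 1.52 on the vehicle 2/3 side. KRT14 thus rose while its level did not follow the division of the samples.

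IVL, the precursor that is crosslinked early in envelope assembly, held 3, 5 and 10 counts with vehicle and 41, 25 and 23 with DOX. Its log2 change was 2.49 (SE 0.370, adjusted p = 0.0163), with 2.64 and 2.13 on the vehicle 1 and vehicle 2/3 sides. CNFN went from 3.30, 3.10 and 3.37 CPM to 6.96, 6.22 and 6.31 CPM, a log2 change of 0.97 (SE 0.145, adjusted p = 0.0166), with 0.91 and 1.08 on these sides. SPRR1A, an envelope precursor, held 3, 0 and 0 counts with vehicle and 19, 12 and 14 with DOX (adjusted p = 0.0454 in the test it entered through the DOX samples alone), a ratio of summed counts per library size of 17.5 with a 95% interval of 5.63 to 88.2 that covers counting error only. The 4 genes are expressed at low levels, and none exceeded 7 CPM in any LNCaP-AI sample.

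The calls of KRT14, IVL and CNFN were lost without DOX 2 or without DOX 3, where the adjusted p of KRT14 was 0.0854 and 0.0829, and where 1 gene of all those tested was called. SPRR1A was under the filter without any 1 DOX sample, and its call was lost without vehicle 2 (adjusted p = 0.0583) or vehicle 3 (0.0588). In a fit with the side as a covariate, added after seeing the data, all 4 were called (adjusted p = 6.04e-07 for KRT14, 2.11e-06 for IVL, 2.23e-05 for CNFN and 3.8e-05 for SPRR1A). This fit called 8 of the 25 genes higher and 2 lower. The further higher genes were KRT8 (log2 change 0.59, SE 0.0937, adjusted p = 1.71e-05), KRT18 (0.24, SE 0.0871, adjusted p = 0.0324), PPL (0.37, SE 0.102, adjusted p = 0.00526) and KRT75 (1.85, SE 0.495, adjusted p = 0.00422). The lower ones were KRT80 (-0.54, SE 0.112, adjusted p = 0.000411) and KRT6C (-0.77, SE 0.268, adjusted p = 0.0253).

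In the test without the side these 6 genes were not called, though KRT8 was in a single fit of all 12 samples (log2 change 0.46, adjusted p = 0.0427). KRT8 was at 224.8, 309.7 and 352.7 CPM with vehicle and 468.7, 379.0 and 374.8 CPM with DOX, so that the groups did not overlap (log2 change 0.44, SE 0.180, adjusted p = 0.159). On the vehicle 1 side its log2 ratio was 0.75, and on the vehicle 2/3 side 0.50. KRT18 was at 219.2, 260.5 and 286.5 CPM with vehicle and 337.4, 261.1 and 256.0 CPM with DOX, which overlap (log2 change 0.13, SE 0.147, adjusted p = 0.592). KRT75, a keratin of the hair follicle companion layer, held 6, 2 and 2 counts with vehicle and 12, 10 and 16 with DOX (adjusted p = 0.0673), and passed the filter only through the DOX samples. PPL was at 18.4, 17.1 and 19.4 CPM with vehicle and 24.1, 25.3 and 23.6 CPM with DOX (log2 change 0.38, SE 0.0988, adjusted p = 0.0553).

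Further genes showed neither a call nor the 10-fold division. KRT80 was at 22.5, 37.6 and 48.4 CPM with vehicle and 34.2, 14.1 and 13.2 CPM with DOX, lower on the vehicle 1 side within each treatment (log2 change -0.84, SE 0.453, adjusted p = 0.268). EVPL ran the other way, at 54.6, 31.8 and 44.2 CPM with vehicle and 42.4, 56.9 and 51.6 CPM with DOX (log2 change 0.18, SE 0.223, adjusted p = 0.635). KRT10 stayed between 27.7 and 34.8 CPM in the 6 samples (log2 change 0.09, adjusted p = 0.648). TGM1, the crosslinking enzyme, had a log2 change of -0.20 (adjusted p = 0.749), and KRT2, an epidermal suprabasal keratin, held 7 to 17 counts in each sample (log2 change 0.08, adjusted p = 0.896).

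Among the 42 genes under the filter in LNCaP-AI cells, 25 were at 0 in every sample and none exceeded 13 counts. Some of the other 17 had counts mainly in vehicle 2, vehicle 3 and DOX 1. KRT9, a keratin of palm and sole skin, held 8, 11 and 7 counts in those samples and 0 in the others, and KLK7 held 12, 13 and 5 against 1, 0 and 1. KLK5 held 2, 10 and 3 counts against 0 in the others, and the hair keratin KRT83 held 3, 8 and 7 against at most 1. These genes were chosen after their values were seen, and their counts are too low for a test.

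**Figure D3:**
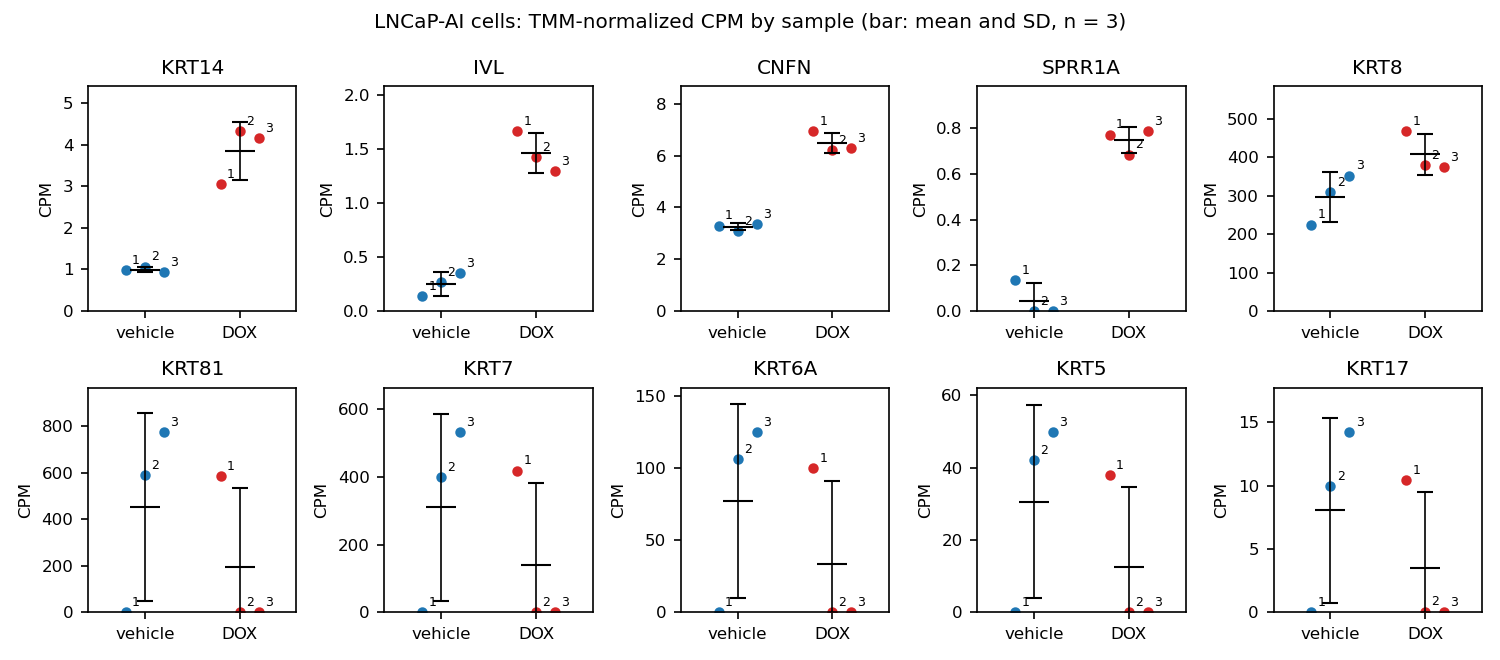
CPM of 10 genes in LNCaP-AI cells (y axis, from 0) by treatment (x axis), with 1 numbered point per sample and bars for mean and SD (n = 3). In the upper row, the DOX points lie above the vehicle points. In the lower row vehicle 2, vehicle 3 and DOX 1 are high and the other 3 samples lie near 0.

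Many keratins divided the LNCaP-AI samples sharply. For 11 of the 25 genes tested (KRT81, KRT7, KRT6A, KRT5, KRT19, KRT6B, KRT17, KRT16, SCEL, KRT86 and KRT15), the lowest of vehicle 2, vehicle 3 and DOX 1 was at least 10 times the highest of vehicle 1, DOX 2 and DOX 3. This pattern was found in 616 of all 16030 genes tested (3.84%), and the opposite pattern in 0 genes. It was counted without a test, since it was looked for after the division was seen. Except for KRT19, these keratin and envelope genes would not have passed the filter without vehicle 2, vehicle 3 and DOX 1, where they are high. Their number among the genes tested thus depends on the filter and is a description only. The 11 genes summed to 1219, 1581 and 1227 CPM in vehicle 2, vehicle 3 and DOX 1, and to 3.25, 4.17 and 3.94 CPM in vehicle 1, DOX 2 and DOX 3.

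KRT81, a type II hair keratin, had the highest level per length of the keratins on the vehicle 2/3 side. It was at 588.1, 772.6 and 586.3 CPM in these samples, and at 0.446, 0.0571 and 0.0563 CPM in vehicle 1, DOX 2 and DOX 3. KRT7 was at 398.5, 530.6 and 418.2 CPM against 0.936, 0.399 and 0.169 CPM, and KRT6A at 106.4, 124.7 and 99.98 CPM against 0.0891, 0 and 0 CPM. The basal keratins KRT5 and KRT17 showed the same division, at 38.0 to 49.8 CPM against at most 0.0446 CPM and at 9.94 to 14.2 CPM against at most 0.0571 CPM. KRT19 was the exception in that it stayed measurable on the low side, at 39.1, 48.3 and 39.0 CPM against 1.61, 3.37 and 3.61 CPM. KRT81 and KRT6A kept nearly the same proportion to KRT7 in the 3 samples of the vehicle 2/3 side. KRT81 was at 148%, 146% and 140% of the CPM of KRT7 in vehicle 2, vehicle 3 and DOX 1, and KRT6A at 26.7%, 23.5% and 23.9%. The lower genes KRT16 (0.885%, 0.745% and 0.545%) and KRT86 (0.469%, 0.262% and 0.496%) varied more.

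Since vehicle has 2 samples of the high side and DOX has 1, each of these 11 genes had a negative log2 change in LNCaP-AI cells, and none was called. Within the vehicle 2/3 side the log2 ratio of DOX 1 to vehicle was -0.14 for KRT7 and -0.16 for KRT19. KRT19 had an overall log2 change of -0.96 (SE 1.37, adjusted p = 0.671), whereas on the vehicle 1 side its log2 ratio was 1.07. The fit of vehicle 1, DOX 2 and DOX 3 alone gave 1.12 (adjusted p = 0.000992), with 1 vehicle sample that is assumed to vary as the DOX samples do.

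Some other markers moved with this division. The summed level of 6 genes listed as markers of basal or mesenchymal cancer cells (VIM, CAV1, CD44, EGFR, AXL and LCN2) was 145.6, 133.1 and 129.8 CPM in vehicle 1, DOX 2 and DOX 3, and 727.8, 744.8 and 646.0 CPM in vehicle 2, vehicle 3 and DOX 1, against 2625 to 3376 CPM in DU-145 samples. In this list CAV1, CD44, EGFR, AXL and LCN2 were higher in each sample of the vehicle 2/3 side than in each of the other, and VIM was not (26.97, 27.2 and 30.3 CPM with vehicle and 52.1, 56.7 and 55.8 CPM with DOX). CD44 was at 79.3, 83.4 and 69.4 CPM on the vehicle 2/3 side and at most 0.169 CPM on the other, and LCN2 at 133.1, 148.8 and 116.7 CPM and at most 0.0892 CPM. LCN2 did not exceed 1.95 CPM in any DU-145 sample, nor KRT6A 0.551 CPM or KRT5 0.472 CPM. The summed level of 6 LNCaP-lineage genes (KLK3, KLK2, TMPRSS2, FOLH1, STEAP2 and HOXB13) was 2059, 3152 and 3212 CPM in vehicle 1, DOX 2 and DOX 3 and 1488, 1331 and 2409 CPM in vehicle 2, vehicle 3 and DOX 1, so that within each treatment it was higher on the vehicle 1 side. TP63, the basal-cell factor, held 19, 25 and 14 counts in vehicle 2, vehicle 3 and DOX 1 and at most 2 in the others. It comes from a list of basal prostate markers with KRT5, KRT14, KRT15, DST and NGFR. Of these, KRT5 and KRT15 divided the samples and KRT14 did not. DST differed less, at 57.0, 53.4 and 54.1 CPM in vehicle 2, vehicle 3 and DOX 1 against 41.7, 39.6 and 38.1 CPM. NGFR held at most 3 counts in any LNCaP-AI sample. The part of these markers in the keratin levels was not tested.

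Neighbouring keratin genes often divided the samples together, but not always. The type I keratins other than KRT18 (28 genes counting KRT222) lie within 970.2 kb of chromosome 17 and the type II keratins, with KRT18, within 783.9 kb of chromosome 12 (27 genes). The pairs KRT15 and KRT19 (1.09 kb apart), KRT16 and KRT17 (3.54 kb), KRT6A and KRT5 (21.3 kb) and KRT7 and KRT81 (33.7 kb) each divided them. KRT14 lies 22.9 kb from KRT16 and 32.5 kb from KRT17, both of which divided the samples, and KRT14 did not. KRT6C lies 13.4 kb from KRT6A and was at 2.50, 1.76 and 1.49 CPM with vehicle and 1.02, 0.913 and 1.97 CPM with DOX, with no such division. The longest coding transcripts of KRT6A and KRT6C are 95.7% identical and those of KRT6A and KRT6B 91.8%, and those of KRT14 and KRT16 87.1%, so reads of these genes could be split between copies and the low counts of KRT6C are uncertain. KRT86 overlaps both KRT7 and KRT81, and its 35, 40 and 51 counts in vehicle 2, vehicle 3 and DOX 1 are uncertain for the same reason.

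**Figure D4:**
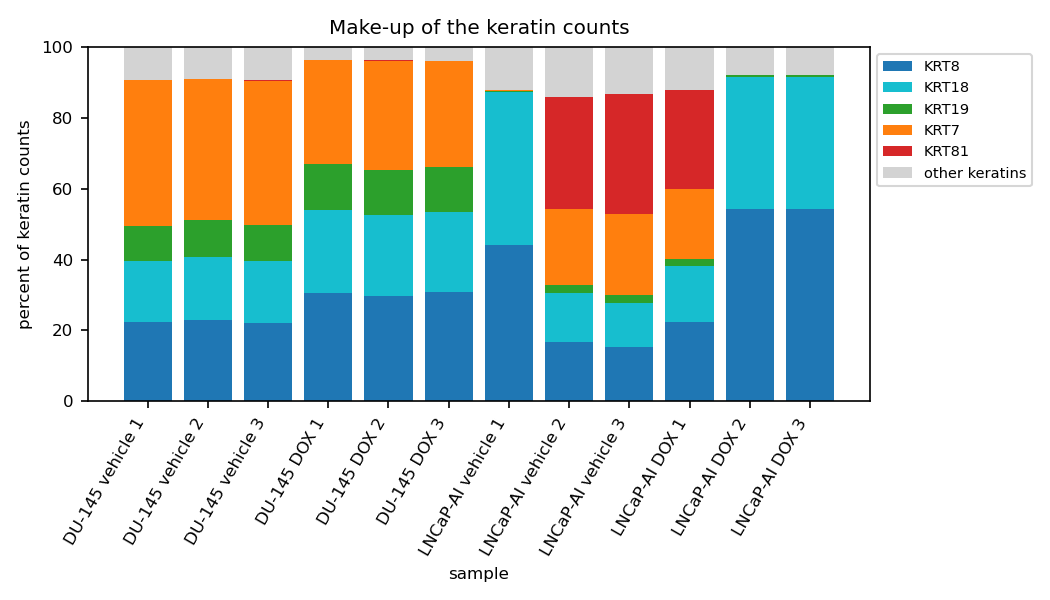
Share of the keratin counts (y axis, percent) that KRT8, KRT18, KRT19, KRT7, KRT81 and all other keratins make up in each sample (x axis). KRT7 is the largest part in DU-145 vehicle samples, KRT81 and KRT7 together make up about as much as all else in LNCaP-AI vehicle 2 and 3, and KRT8 and KRT18 dominate in LNCaP-AI vehicle 1, DOX 2 and DOX 3.

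The balance of the chains was compared per length, as CPM per kilobase of the union of exons summed over each family. In DU-145 vehicle samples the type I sum was 0.693, 0.744 and 0.731 of the type II sum, and with DOX 1.11, 1.06 and 1.05, so the groups did not overlap. The ratio of KRT18 to KRT8 on this scale stayed at 1.64 to 1.78 in all DU-145 samples. In LNCaP-AI cells the ratio of type I to type II followed the division and not the treatment, at 2.24, 1.76 and 1.73 in vehicle 1, DOX 2 and DOX 3 and 0.232, 0.202 and 0.272 in vehicle 2, vehicle 3 and DOX 1. With the length of the longest transcript in place of the union of exons, the ratio in DU-145 cells was 0.46, 0.491 and 0.482 with vehicle and 0.714, 0.689 and 0.683 with DOX, so its level depends on the length used but its direction did not.

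KRT8 and KRT18 have many processed copies in the genome. The 51 KRT8 pseudogenes in the counts held 1.86% to 6.96% of the reads given to KRT8 and its copies, and the 67 KRT18 pseudogenes 0.374% to 0.787%. The KRT8 and KRT18 loci also overlap on opposite strands. The libraries were stranded, but the strand setting of the counting is not given in the sources used here.

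With vehicle, 3 of the 4 simple-epithelial keratins tested (KRT8, KRT18 and KRT19) were called higher in DU-145 than in LNCaP-AI cells. Of 16 genes tested, 7 were higher in DU-145 cells and 4 lower, against 30.2% and 35% of all 15628 genes tested (65.1% in either direction). The filter left out 51 genes here, with up to 3593 counts in a sample. KRT6A held 2, 1991 and 3593 counts in LNCaP-AI vehicle samples and KRT5 1, 789 and 1434, against 0 in the DU-145 vehicle samples. KRT6B, KRT17 and KRT16 were left out likewise, with counts mainly in LNCaP-AI vehicle 2 and vehicle 3. KRT8 was higher by 0.62 on the log2 scale (SE 0.165, adjusted p = 0.0127), KRT18 by 0.46 (SE 0.114, adjusted p = 0.0101), KRT19 by 2.80 (SE 0.925, adjusted p = 0.0308) and KRT80 by 1.96 (SE 0.258, adjusted p = 0.000487). SCEL (4.02, SE 0.857, adjusted p = 0.00475), KRT15 (2.29, SE 0.617, adjusted p = 0.0135) and PPL (0.34, SE 0.111, adjusted p = 0.0297) were also higher.

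KRT14 and KRT6C were at 0 counts in all DU-145 vehicle samples and were at least 3.73-fold and at least 7.18-fold higher in LNCaP-AI cells, taking 3 counts per library as the floor. Both passed the filter only through the LNCaP-AI samples, where they are high. CNFN was lower in DU-145 cells (log2 difference -1.25, SE 0.278, adjusted p = 0.00581). KRT81 was called lower (log2 difference -7.16, SE 1.98, adjusted p = 0.015), but against LNCaP-AI vehicle 1 alone it was higher in DU-145 cells (2.71, adjusted p = 0.000196), in a fit that assumes this lone sample of 10 counts to vary as the DU-145 samples do. KRT7 was at 756.4 to 835.4 CPM in DU-145 cells, above each LNCaP-AI vehicle sample (0.936, 398.5 and 530.6 CPM), and was not called (log2 difference 1.40, SE 1.36, adjusted p = 0.391). The calls of PPL, KRT19 and KRT81 were lost in 5, 5 and 3 of the 6 fits that left out 1 sample, and without LNCaP-AI vehicle 2 those of KRT8 (adjusted p = 0.0537), KRT18 (0.0539) and KRT15 (0.0558) were lost as well.

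The DOX effect was then compared between the lines. Of the 25 genes tested, 0 had a higher and 1 a lower change in LNCaP-AI than in DU-145 cells, against 5.43% and 3.76% of 16800 genes tested (9.18% in either direction). The gene was KRT18, whose log2 change was smaller in LNCaP-AI cells (difference -0.96, SE 0.170, adjusted p = 0.00781). For KRT8 this difference was -0.67 (SE 0.207, adjusted p = 0.0689), and for SCEL, which moved furthest in DU-145 cells, -3.52 (SE 1.33, adjusted p = 0.126). For EVPL the difference was 0.66 (SE 0.239, adjusted p = 0.114), for CNFN 0.70 (SE 0.337, adjusted p = 0.227) and for IVL 1.43 (SE 0.719, adjusted p = 0.246). KRT80 had log2 changes of -0.82 in DU-145 and -0.84 in LNCaP-AI cells, with a difference of 0.01 (SE 0.492). The LNCaP-AI change was not called (adjusted p = 0.268), and KRT80 was lower on the vehicle 1 side within each treatment. Its log2 ratios within the sides were -0.71 (vehicle 1 side) and -0.32 (vehicle 2/3 side).

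**Figure D5:**
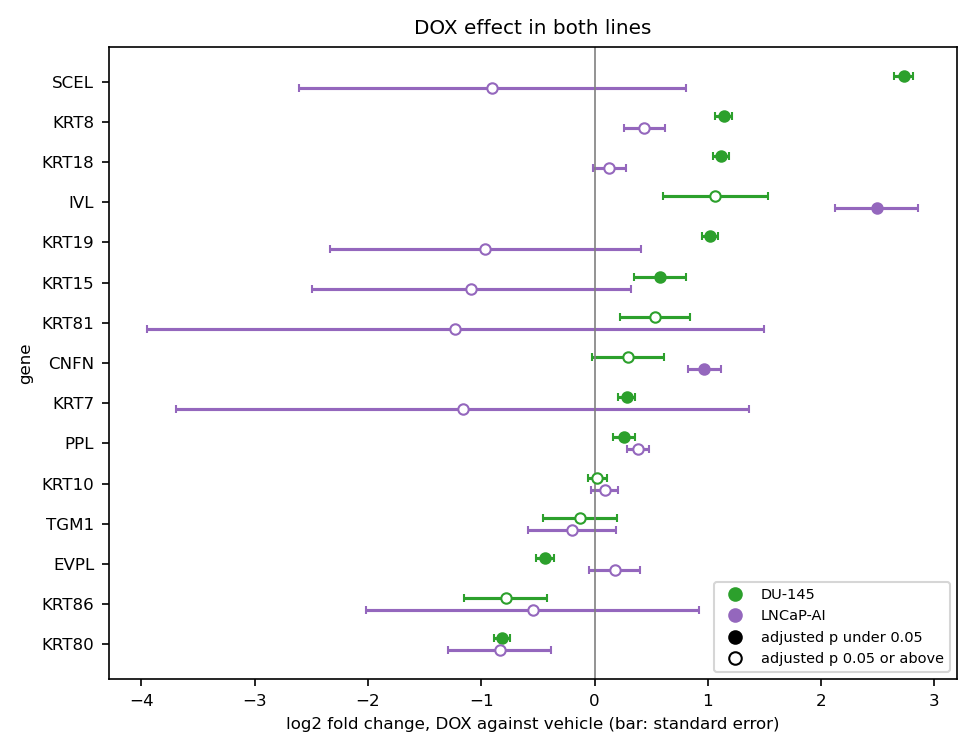
Log2 fold change of DOX against vehicle (x axis, bars for SE) of the 15 keratin and envelope genes tested in both lines (y axis), with DU-145 in green and LNCaP-AI in purple and filled points for an adjusted p under 0.05. The DU-145 points of SCEL, KRT8, KRT18 and KRT19 lie right of 0 with short bars, whereas KRT81, KRT7 and SCEL have long bars in LNCaP-AI cells.

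Genes that work with keratins or in cornification were counted from further lists, beside which the shares of all genes that rose and fell were 26.3% and 25.3% for DU-145 and 7.22% and 5.52% for LNCaP-AI cells. Desmosomes anchor keratin filaments at cell junctions. Of 8 desmosome genes tested in DU-145 cells, 4 rose (JUP by 0.66, DSC2 by 0.43, PKP3 by 0.42 and PERP by 0.32 on the log2 scale) and 2 fell (DSC3, -1.11, and DSG2, -0.29). In LNCaP-AI cells 1 of 12 tested, DSG2, fell (-0.62, adjusted p = 0.0161) and 0 rose. The LNCaP-AI call of DSG2 was lost without DOX 2, without DOX 3 and with the replicate block, where 0 of all genes tested were called lower. DSC3 divided the LNCaP-AI samples, with 351, 457 and 412 counts in vehicle 2, vehicle 3 and DOX 1 and 16, 13 and 11 in the others.

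Of other cornification genes, 8 of 39 were tested in DU-145 cells, where LYPD3 (log2 change 1.28, adjusted p = 9.3e-07) and ST14, the protease matriptase (0.71, adjusted p = 9.7e-05), rose and SPINK5, an inhibitor of skin kallikreins, fell (-0.73, adjusted p = 0.0431). In LNCaP-AI cells 1 of 14 tested, the filaggrin-family gene HRNR, rose (2.95, adjusted p = 0.0247), from 2, 2 and 1 counts to 11, 15 and 10, having passed the filter only through the DOX samples. Of transcription factors that act on stratified epithelial genes, 3 of 7 tested rose in DU-145 cells (PRDM1 by 2.05, KLF4 by 1.18 and CEBPB by 0.77) and GRHL1 fell (-0.37), against 51.5% of all genes called in either direction. PRDM1 held 2, 4 and 3 counts with vehicle and 12, 11 and 16 with DOX, and passed the filter only through the DOX samples. In LNCaP-AI cells 2 of 15 rose, MAF (1.64, adjusted p = 0.0171) and ELF3 (0.82, adjusted p = 0.0277), against 12.7% of all genes called. The LNCaP-AI calls of HRNR, MAF and ELF3 were lost with the replicate block, where 0 of all genes tested were called. Without DOX 2 or without DOX 3, 1 gene of all those tested was called. KLF4 had a negative log2 change in LNCaP-AI cells (-0.80, adjusted p = 0.226), opposite in sign to that in DU-145 cells. The difference was -1.95 (adjusted p = 0.0219). KLF4, PRDM1 and CEBPB were each lower in vehicle 1, DOX 2 and DOX 3 than in the other LNCaP-AI samples.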

How the data were processed

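Total RNA of 12 samples (4 groups of 3) was made into TruSeq Stranded mRNA libraries. Per the labels, STAR 2.7.0 and CASAVA 1.8.2 were used with GRCh38.p7, and the counting tool is not given in the sources used here. The deposited values are raw counts per gene, not normalized by the authors, who tested them with DESeq2 1.24.0. GEO's labels name the groups after a control and a MUC1 shRNA, whereas the series' design and the methods give vehicle and DOX treatment of tet-MUC1shRNA cells, and the latter names are used. The study describes cultures in triplicate; where samples are not separate cultures, p-values measure technical spread only.

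Symbols and positions came from GENCODE release 44 (56948 of 58037 rows had a symbol) and promoter sequences from RefSeq. Counts with at least 10 in at least 3 of the samples fitted were tested in edgeR 4.0.16 (TMM, glmQLFit and glmQLFTest, R 4.3.3), within each line, between lines with vehicle, and as an interaction over 12 samples, at an adjusted p of 0.05. SEs were taken from the log2 fold change and F. Within-side log2 ratios used CPM + 0.1. Values at or below 3 counts were taken as the floor, which covers counting error only. The genes, lists and tests were chosen with earlier results of these data known. The genes described in full are those called in either line and KRT8, KRT18 and KRT19, and from each further list at most the 4 called genes with the smallest adjusted p per direction. Genes named for the division of the LNCaP-AI samples were chosen after their values were seen. Alternatives were DESeq2 1.42.0, size factors, upper-quartile normalization, other filters, a single fit, a replicate block and leaving out each sample. On counts simulated from the DU-145 comparison (13468 genes), the fit recovered 93.5% of 200 genes changed by 2 on the log2 scale, and on those of the LNCaP-AI comparison (15500 genes) 60.5%. Each of these fits also made 12 false calls. Part of the LNCaP-lineage marker list is not reported here, and the list's sum leaves it out.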

Additional observations from a re-analysis of the deposited data

Results flagged for a closer look

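The DOX effect on KRT18 differed between the lines by the interaction test, with a log2 change that was smaller in LNCaP-AI than in DU-145 cells (difference -0.956, adjusted p = 0.00781). KRT18 was higher in 3 of 3 DOX samples than in every vehicle sample in DU-145 cells, whereas the groups overlapped in LNCaP-AI cells. Within the LNCaP-AI sides its log2 ratio was 0.24 and 0.30, and in DU-145 cells its log2 change was 1.12.

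The effect on MUC1 itself also differed, with a log2 change higher by 1.95 in LNCaP-AI cells, which is a smaller fall there (adjusted p = 0.0241). The DU-145 DOX samples were at the floor of 3 counts each and the LNCaP-AI DOX samples held 8, 6 and 3, so the size of this difference rests on few counts. Both differences were lost with the replicate block (adjusted p = 0.11 for KRT18 and 0.14 for MUC1).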

How the results depend on the processing

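In DU-145 cells 7 genes rose and 2 fell. With all 12 samples in a single fit, which shares the spread of the divided LNCaP-AI samples, 3 rose (SCEL, KRT8 and KRT18) and 0 fell. Without 1 sample at a time, 5 to 7 rose and 2 to 3 fell.

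In LNCaP-AI cells 4 rose and 0 fell. In a single fit of all 12 samples 7 rose. With the side as a covariate 8 rose and 2 fell, and from vehicle 1, DOX 2 and DOX 3 alone 2 fell (KRT80 and KRT6C), both added after seeing the data. Without 1 sample at a time, 0 to 5 rose (MUC1, KRT14, IVL and CNFN lost their calls without DOX 2 or DOX 3), with 0 without DOX 2 and 0 without DOX 3, and 0 to 1 fell, with 1 without DOX 1. KRT19 changed sign from -0.96 to 0.072 with the side as a covariate, 1.12 from vehicle 1, DOX 2 and DOX 3 alone and 1.07 as a ratio on the vehicle 1 side.

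Between the lines with vehicle, 7 genes had a higher and 4 a lower level in DU-145 cells. Without a filter 11 were lower, KRT6A, KRT5, KRT6B, KRT17 and KRT16 among them, and in a single fit 9. Against vehicle 1 alone KRT81 changed sign to 2.71. Without 1 sample at a time, 2 to 8 were higher, with 2 without LNCaP-AI vehicle 2, and 2 to 3 lower, with 2 without LNCaP-AI vehicle 2 or 3. For the difference of the DOX effect, 1 gene was lower in LNCaP-AI cells. DESeq2 gave 4, and leaving out 1 sample gave 0 to 1 higher and 1 to 7 lower, with 3 lower without LNCaP-AI vehicle 1 and 7 without LNCaP-AI DOX 1.

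The replicate numbers did not pair the samples. The correlation of same-numbered deviations was 0.127, -0.0912 and 0.0763 in DU-145 cells, and -0.94, -0.812 and -0.84 in LNCaP-AI cells, where each number holds 1 sample of each side. With the replicate block, 0 genes rose in LNCaP-AI cells (5 had an unadjusted p under 0.05) and 0 genes differed in their DOX effect between the lines. No call was lost in DU-145 cells, and between the lines with vehicle those of PPL (adjusted p = 0.0704) and KRT81 (0.148) were lost. Except where a value above shows the construction, the cause was not tested.

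KRT4, which the filter left out in DU-145 cells, was called lower with DOX without a filter (log2 change -3.25, adjusted p = 7.82e-05). That fit also called IVL (log2 change 1.07, adjusted p = 0.0414), KRT81 (0.54, adjusted p = 0.0411) and KRT6A (4.61, adjusted p = 0.028) higher. The call of KRT6A rests on 7 and 2 counts in DOX 2 and DOX 3. The call of KRT15 was lost in it (adjusted p = 0.0539). Genes at 3 counts or fewer in both groups could not be compared at this depth.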

Other observations

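The other intermediate filament genes of these cells were counted from a list of 14 genes that form non-keratin filaments or link filaments to the cell. Vimentin (VIM), the filament protein of mesenchymal cells, moved in opposite directions in the lines. In DU-145 cells it fell from 902.2, 845.4 and 881.8 CPM to 641.9, 569.2 and 556.5 CPM (log2 change -0.57, SE 0.0753, adjusted p = 4.16e-06). In LNCaP-AI cells it rose from 26.97, 27.2 and 30.3 CPM to 52.1, 56.7 and 55.8 CPM (log2 change 0.93, SE 0.0833, adjusted p = 0.0123). This LNCaP-AI call was lost with the replicate block, where 0 of all genes tested were called. The difference between the lines was 1.53 (SE 0.110, adjusted p = 9.54e-05). VIM did not follow the division of the LNCaP-AI samples that the keratins showed.

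Nestin (NES) and synemin (SYNM), filament proteins of progenitor and muscle cells, fell in both lines. NES held 81, 76 and 83 counts in DU-145 vehicle samples and 18, 20 and 12 with DOX (log2 change -2.28, adjusted p = 6.3e-08), and in LNCaP-AI cells 913, 372 and 708 counts and 120, 107 and 116 (log2 change -2.31, adjusted p = 0.0142). SYNM fell by 1.27 on the log2 scale in DU-145 cells (adjusted p = 7.7e-10) and by 1.15 in LNCaP-AI cells (adjusted p = 0.0162). The LNCaP-AI calls of NES and SYNM were lost without DOX 2, without DOX 3 and with the replicate block, where 0 of all genes tested were called lower. Internexin (INA) rose in DU-145 cells (log2 change 1.63, adjusted p = 5.73e-07) and divided the LNCaP-AI samples, at 13.4 to 14.8 CPM in vehicle 2, vehicle 3 and DOX 1 and at 0 in the others. The linkers PLEC and MACF1 rose in DU-145 cells by 0.57 and 0.74. In all, 4 of 11 tested rose and 3 fell in DU-145 cells, and 1 of 10 rose and 2 fell in LNCaP-AI cells, against 26.3% and 25.3% of all genes tested in DU-145 cells and 7.22% and 5.52% in LNCaP-AI cells.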
